A study of Mus musculus with 36 samples.

Results

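The genes described here encode the receptors for glutamate and the proteins that travel with them or anchor them at the synapse. They were chosen by gene symbol: 4 AMPA receptor subunits (Gria), 5 kainate receptor subunits (Grik), 7 NMDA receptor subunits (Grin), 2 delta receptors (Grid), 7 metabotropic receptors (Grm), 6 AMPA receptor auxiliary proteins (Shisa and Cnih), 2 kainate receptor auxiliary proteins (Neto), 3 Homer scaffolds and 4 membrane-associated guanylate kinase (MAGUK) scaffolds (Dlg). These are 40 of the 24344 genes of the deposited table, and 39 of them had enough counts to be tested. The exception was Grm6, a receptor best known from the retina, which was at 0 in 15 of the 36 libraries and reached at most 0.103 CPM (counts per 1e6 counts of the library). A count of 0 allows up to 0.0605 to 0.136 CPM (3 counts per library, counting error only), so the libraries at 0 cannot be ranked against the others.

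Glutamate is the main fast excitatory transmitter of the brain and the transmitter of most vagal sensory fibers that end in the solitary tract nucleus. AMPA and kainate receptors open on glutamate binding, NMDA receptors also need a co-agonist and the relief of a magnesium block, delta receptors bind cerebellin at the synapse, and metabotropic receptors signal through G proteins. Auxiliary proteins of the Shisa, cornichon and Neto families set the trafficking and gating of the channels, and Homer and MAGUK proteins hold receptors in the postsynaptic density.

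RNA came from the dorsal vagal complex, the brainstem region that receives vagal input from the gut and holds the vagal motor neurons. C57BL/6J, CAST/EiJ (derived from wild mice) and NZO/HlLtJ (prone to obesity and diabetes) mice of both sexes, all labelled as wild type and without treatment, received either diet from 6 weeks of age, and tissue was taken at 15 weeks. The control diet held 10% fat and the high fat, high sugar (HFHS) diet 44% fat, and fiber was added to both. With 3 libraries per strain, diet and sex (12 groups), a strain is 12 libraries and a strain on 1 diet 6. The labels do not say whether a library is 1 animal or a pool, and p-values measure the spread between these libraries.

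Library totals ran from 22.03 to 49.6 in units of 1e6 counts, and the 40 genes took 0.261% to 0.477% of them. Markers of vagal motor and catecholamine neurons were present in every library, with a summed level of 80.8 to 228 CPM over 9 genes. Several libraries stood apart. CAST/EiJ male control 1 and 3 and NZO/HlLtJ male control 3 had almost no reads of the Hox genes that mark the hindbrain and spinal cord (0.413, 1.04 and 2.05 CPM summed over 18 genes; the low-Hox libraries), and the first 2 of them had the highest sums of Purkinje cell markers (3074 and 3085 CPM). NZO/HlLtJ male control 1 held 17460 CPM of pituitary hormone genes and was the lowest of the 36 libraries for 18 genes. Counts of called genes, and the diet values in CAST/EiJ, are given below also without the low-Hox libraries.

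Promoter windows are shown for the 3 genes with the largest called strain differences whose windows lie within 50 bases of the annotated gene start and outside every annotated exon. Each is the 250 bases before the RefSeq start on GRCm38.p6, 5′ to 3′ on the strand of the gene, with matches to the GC box (GGGCGG, either strand) in capitals.
Shisa7, chr7:4844697-4844946, minus strand: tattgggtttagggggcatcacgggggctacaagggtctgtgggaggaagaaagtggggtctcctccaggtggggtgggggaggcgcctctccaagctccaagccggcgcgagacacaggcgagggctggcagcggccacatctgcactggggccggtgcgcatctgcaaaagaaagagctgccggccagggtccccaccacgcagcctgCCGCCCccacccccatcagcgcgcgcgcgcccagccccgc
Grm2, chr9:106656110-106656359, minus strand: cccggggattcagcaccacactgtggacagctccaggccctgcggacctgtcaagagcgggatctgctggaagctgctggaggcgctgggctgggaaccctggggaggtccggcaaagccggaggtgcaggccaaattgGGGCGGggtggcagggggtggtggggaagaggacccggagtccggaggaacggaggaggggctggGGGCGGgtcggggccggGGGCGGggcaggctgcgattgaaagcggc
Grik3, chr4:125490446-125490695, plus strand: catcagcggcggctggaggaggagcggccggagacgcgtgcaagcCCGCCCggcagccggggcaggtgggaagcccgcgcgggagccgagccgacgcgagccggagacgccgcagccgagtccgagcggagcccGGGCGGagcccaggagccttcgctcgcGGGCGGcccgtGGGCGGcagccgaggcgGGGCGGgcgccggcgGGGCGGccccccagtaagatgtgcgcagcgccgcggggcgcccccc

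The Shisa7 window held 1 GC box, the Grm2 window 3 and the Grik3 window 6. RefSeq windows matched 27 of the 40 genes by symbol, and in 15 of these the window listed first held a GC box, which stood in 32.7% of all 32851 windows. Counting every listed window of a gene, 18 of the 27 held one. The median GC content was 64.8% over the 27 first windows and 52.4% over all windows. The cAMP response element (TGACGTCA) was found in none of the 27 first windows and in 1.55% of all windows, and the Egr1 motif (GCGNGGGCG) in 2 of the 27 and in 4.7% of all. These matches describe the reference sequence only, and no binding was measured.

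Per kilobase of exon, AMPA receptor subunits had the highest sum of the 7 classes whose sums are given here and NMDA subunits the next. The summed level was 107.9 ± 17.98 CPM per kilobase (SD, n = 36 libraries) for the AMPA subunits and 76.4 ± 6.53 for the NMDA subunits. Among these 7, the MAGUK scaffolds followed with 64.0 ± 3.66, then the AMPA auxiliary proteins with 40.4 ± 8.39 and the kainate subunits with 34.1 ± 3.07. The Homer scaffolds reached 16.9 ± 7.52 and the Neto proteins 15.2 ± 2.22. The ranges of classes next to each other in this order all overlapped. For example, NMDA sums reached 91.1, and AMPA auxiliary sums ran from 25.4 to 67.8. The lowest AMPA sum (63.5) was above the highest kainate sum (44.9). These sums use the length of all annotated exons of a gene, and the order without length is not given here.

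**Figure D1:**
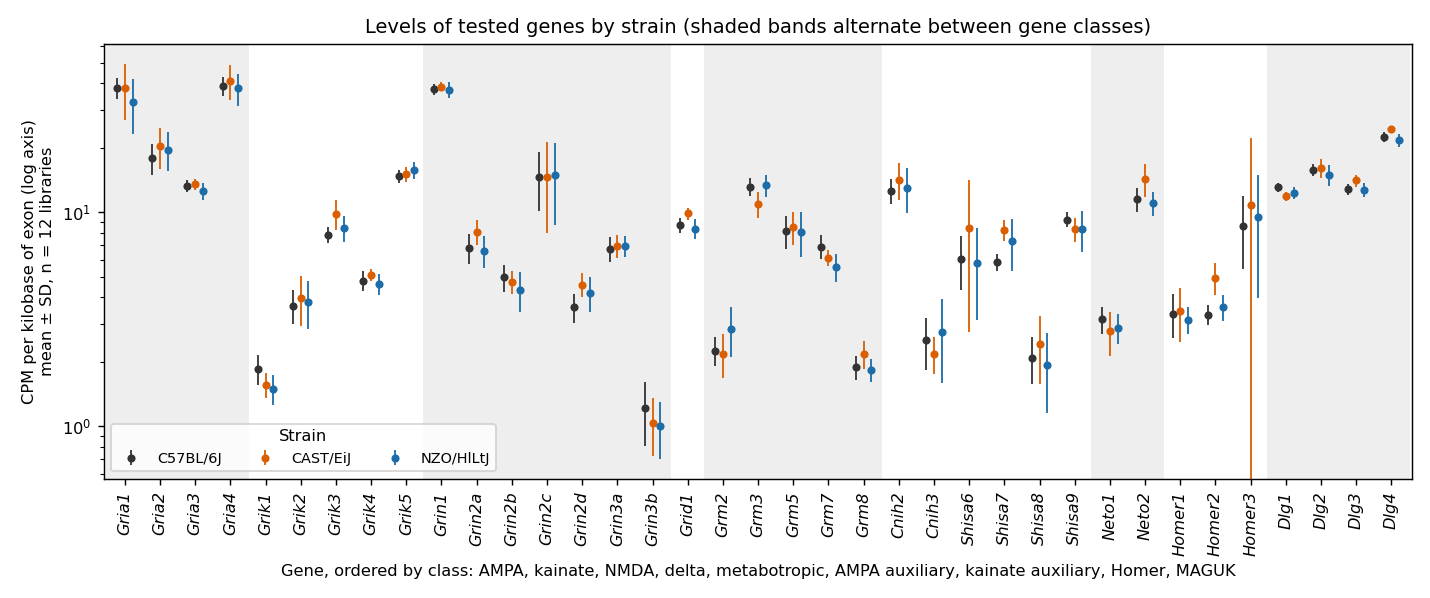
Level of the tested genes reported here in CPM per kilobase of exon on a log axis, as the mean ± SD of the 12 libraries of each strain, with genes ordered by class. Gria4, Gria1 and Grin1 lie highest and Grin3b lowest; the bar of Homer3 in CAST/EiJ runs off the axis because its SD is larger than its mean.

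Within the AMPA class, Gria4 made up 36.4% ± 1.753 of the per-kilobase sum (SD, n = 36) and Gria1 33.3% ± 3.63. Their ranges overlapped. Gria2, whose edited subunit makes the channel impermeable to calcium, followed with 17.8% ± 1.57 and Gria3 with 12.5% ± 2.03. Among kainate subunits, Grik5, which forms channels only together with other subunits, took 44.5% ± 2.69 and Grik3 25.4% ± 2.34. Grik4 (14.2%), Grik2 (11.1%) and Grik1 (4.79%) made up the rest. Grin1, the obligatory NMDA subunit, was 49.6% ± 2.85 of its class. Grin2c, known from cerebellar granule cells and astrocytes, ranged from 8.62% to 30.4% over the libraries, while Grin2a (9.41%), Grin3a (9.10%), Grin2b (6.15%) and Grin2d (5.40%) stood close together and Grin3b was lowest at 1.44%. These shares use the length of all annotated exons of a gene, and on CPM without length the order differed: Gria2 led its class (33.3%), Grik2 (20.3%) stood above Grik4 (11.75%), and Grin2a (16.0%) and Grin2b (14.5%) stood above Grin2c (9.22%).

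Among metabotropic receptors, Grm3, which lowers cAMP and is common in astrocytes, stood at 12.5 ± 1.80 CPM per kilobase (SD, n = 36). Grm5, which couples to phospholipase C, stood at 8.25 ± 1.59, the presynaptic receptor Grm7 at 6.19, Grm2 at 2.43 and Grm8 at 1.97. On CPM without length the order differed, with Grm5 (84.55) above Grm3 (38.0) and Grm8 (19.47) above Grm2 (11.89). The cornichon Cnih2 led the AMPA auxiliary proteins with 32.9% ± 2.60, ahead of Shisa9 (21.7%), Shisa7 (17.8%) and Shisa6 (16.0%). On CPM without length it took 10.6%, below Shisa7 (27.7%), Shisa6 (27.5%) and Shisa9 (26.7%). Neto2 was 80.3% ± 4.20 of the Neto sum, and Dlg4, which encodes PSD-95, 35.7% ± 1.69 of the MAGUK sum. Homer3 was 51.7% ± 15.3 of the Homer sum, a share that varied widely over the libraries, from 25.7% to 85.1%. On CPM without length Homer3 took 25.04%, below Homer2 (42.0%) and Homer1 (32.9%).

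The genes differed widely in how steady they were. Dlg1 varied by 1.29-fold between its lowest and highest library, Grik5 by 1.39-fold and Dlg4 and Grin1 by 1.42-fold each. Homer3 varied by 13.2-fold, Shisa6 by 10.8-fold, Grin3b by 5.13-fold, Grin2c by 4.45-fold and Gria1 by 4.01-fold. CAST/EiJ male control 1 was the highest of the 36 libraries for 12 genes and CAST/EiJ male control 3 for 6. Where a bulk sample shows a lower level, fewer cells of a type and less RNA per cell cannot be told apart.

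The first question the design poses is how the strains differ, over both diets and sexes. A gene was called when its adjusted p in edgeR's quasi-likelihood test was under 0.05 over all 20108 genes tested. CAST/EiJ differed most from the other strains: relative to C57BL/6J, Homer2, Shisa7, Grin2d, Grik3, Neto2, Grin2a, Grm8, Grid1, Dlg3 and Dlg4 were higher, and Grm3, Grik1, Grm7 and Dlg1 were lower. That is 14 of 39, against 52.3% of all genes tested in the same comparison; 10 were higher and 4 lower, against 24.5% and 27.8% of all genes. In NZO/HlLtJ against C57BL/6J, 4 of 39 were called (24.0% of all genes tested, 11.7% higher and 12.3% lower), with Shisa7 and Grm2 higher and Grik1 and Grm7 lower. In NZO/HlLtJ against CAST/EiJ, 11 of 39 were called (50.1% of all genes tested, 27.3% higher and 22.8% lower), 2 of them higher (Grm2 and Grm3) and 9 lower. The median size of the log2 change over the 39 genes was 0.14, 0.08 and 0.12 in these comparisons, beside 0.23, 0.13 and 0.22 over all genes tested. In the 4383 genes between the lower and upper quartile of the 39 genes in average log2 CPM (4.95 to 6.81), it was 0.12, 0.07 and 0.11. Of these 4383 genes, 52.2%, 24.4% and 49.2% were called. The comparisons share libraries and are not independent of each other.

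**Figure D2:**
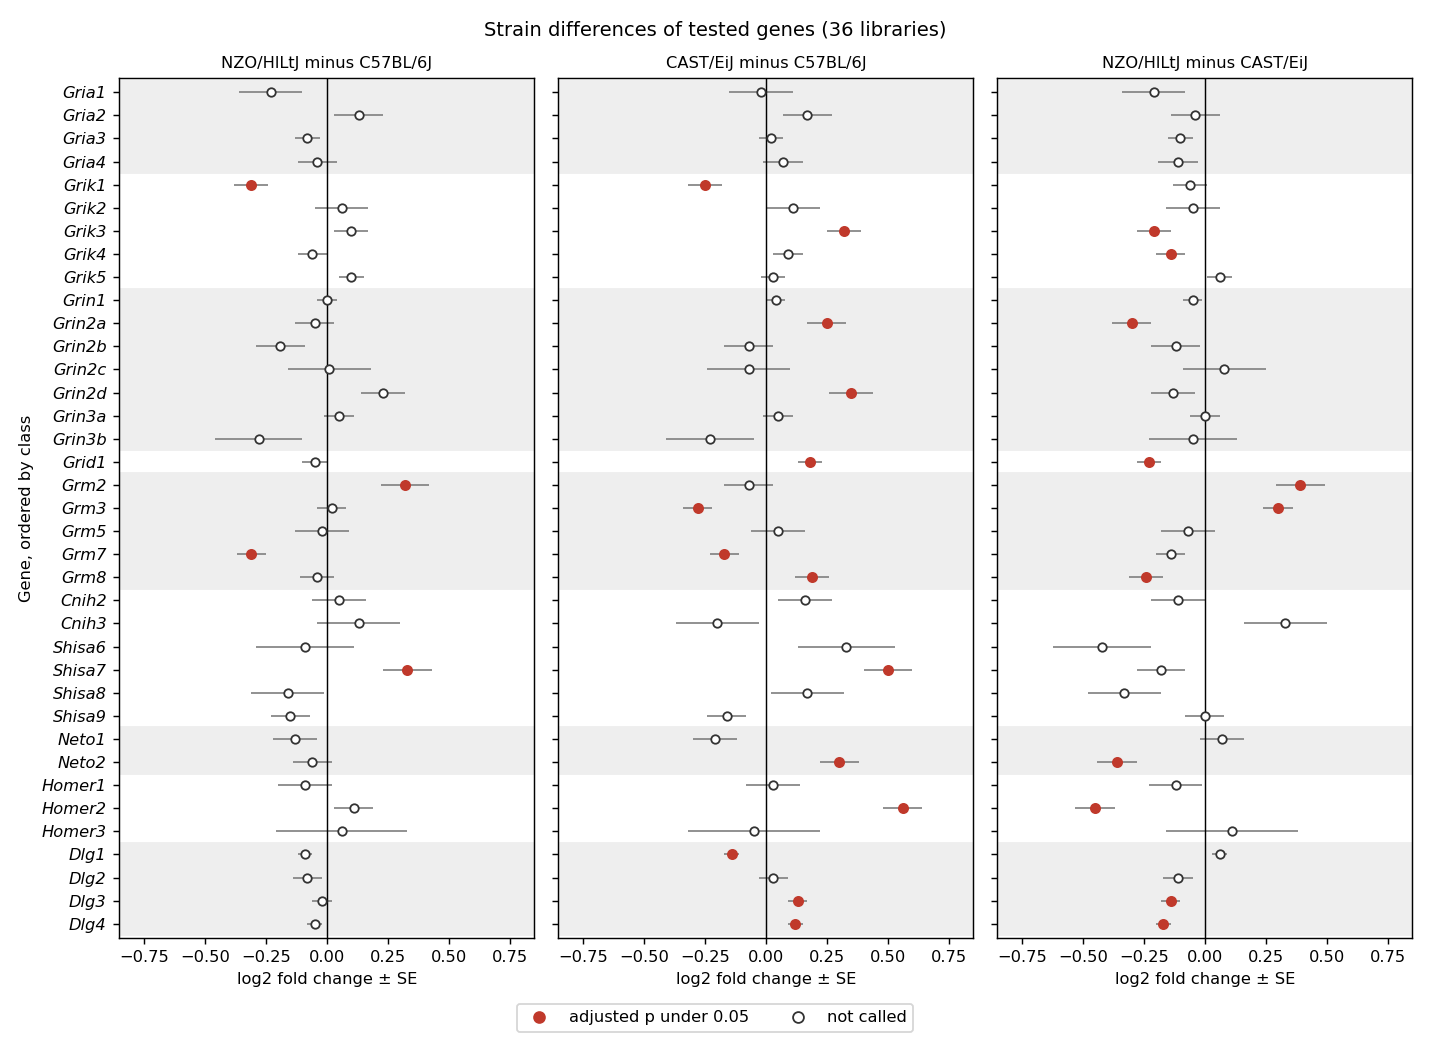
Log2 fold change ± SE of the tested genes reported here in the 3 strain comparisons, from the fit over 36 libraries; red points have an adjusted p under 0.05. No AMPA subunit (Gria1 to Gria4) is red in these fits, although Gria3 was called in NZO/HlLtJ against CAST/EiJ under other settings, and Homer2 and Shisa7 have the largest values in the middle panel, 0.56 and 0.50.

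No AMPA subunit was called in any strain comparison by the main test. Gria3 was the steadiest, with 108 to 142 CPM in C57BL/6J (median 133), 123.2 to 148 in CAST/EiJ (median 134) and 102 to 149 in NZO/HlLtJ (median 122.5). Gria1 spanned 181 to 269 CPM in C57BL/6J (median 235), 181 to 391 in CAST/EiJ (median 204) and 97.6 to 304 in NZO/HlLtJ (median 197). All groups overlapped, and the smallest adjusted p of the class was 0.21, 0.155 and 0.072 in NZO/HlLtJ against C57BL/6J, CAST/EiJ against C57BL/6J and NZO/HlLtJ against CAST/EiJ. The last of these was Gria3 (log2 change -0.10 ± 0.05), which was called lower in NZO/HlLtJ than CAST/EiJ with DESeq2, with its size factors in edgeR, with limma on the deposited log2 values and in a fit of these strains alone. With a cerebellar marker score as a covariate, Gria2 (log2 change 0.26 ± 0.07 SE, adjusted p = 0.00259 in edgeR's quasi-likelihood test) and Gria4 (0.14 ± 0.05, adjusted p = 0.0304) were called higher in CAST/EiJ than in C57BL/6J.

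Among the AMPA auxiliary proteins, Shisa7 was called in both comparisons with C57BL/6J. Its level ran from 32.4 to 43.5 CPM in C57BL/6J (median 38.9), from 46.8 to 66.6 in CAST/EiJ (median 53.7) and from 33.8 to 81.8 in NZO/HlLtJ (median 44.0). Every CAST/EiJ library was above every C57BL/6J library, and the share of all genes tested with such a separation was not counted. The log2 change of CAST/EiJ against C57BL/6J was 0.50 ± 0.10 (SE, adjusted p = 0.000109 in edgeR's quasi-likelihood test). In NZO/HlLtJ it was 0.33 ± 0.10 (adjusted p = 0.0163), and it was 0.21 (adjusted p = 0.0343) without NZO/HlLtJ male control 3, the library with the highest value. Shisa7 is also known as an auxiliary protein of GABA-A receptors. The other 5 genes of the class, Cnih2, Cnih3, Shisa6, Shisa8 and Shisa9, were not called in any strain comparison by the main test, although Shisa6, Shisa8, Shisa9 and Cnih2 were in 1 or more comparisons under the tissue covariates.

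**Figure D3:**
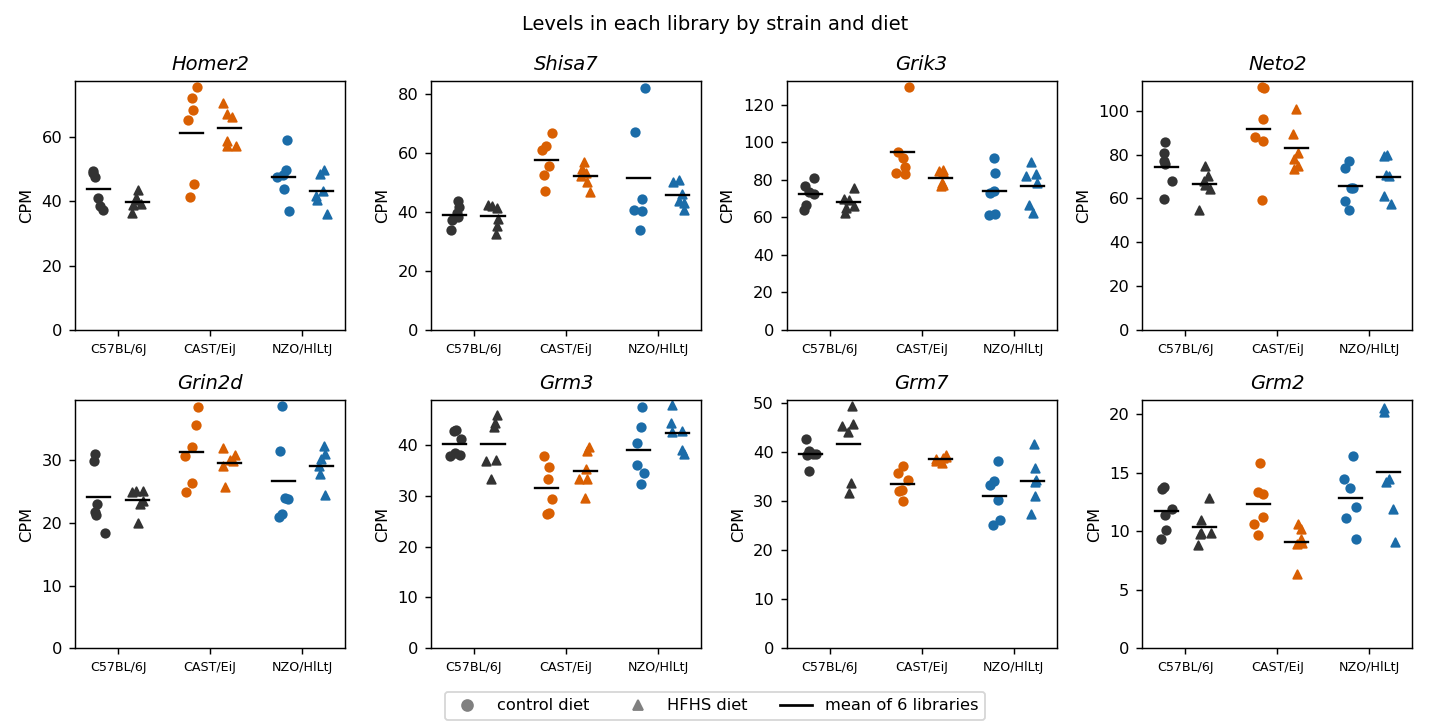
CPM of 8 genes in each of the 36 libraries, with circles for the control diet, triangles for the HFHS diet and a line at the mean of 6 libraries; the axes start at 0. CAST/EiJ lies above C57BL/6J in every library for Shisa7 (46.8 to 66.6 against 32.4 to 43.5 CPM), while the 2 lowest CAST/EiJ points of Homer2 (41.2 and 45.5 CPM) fall among the other strains.

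Of the 5 kainate receptor subunits, 2 were called in CAST/EiJ against C57BL/6J (40.0%, beside 52.3% of all genes), 1 in each direction, 2 in NZO/HlLtJ against CAST/EiJ (40.0%, beside 50.1%) and 1 in NZO/HlLtJ against C57BL/6J (20.0%, beside 24.0%). Grik3 spanned 62.5 to 81.2 CPM in C57BL/6J (median 69.7), 76.7 to 129 in CAST/EiJ (median 84.3) and 61.3 to 91.7 in NZO/HlLtJ (median 76.3). CAST/EiJ was higher than C57BL/6J by 0.32 ± 0.07 log2 units (adjusted p = 0.000246), and NZO/HlLtJ lower than CAST/EiJ (log2 change -0.21 ± 0.07, adjusted p = 0.00976). The groups overlapped, with the highest C57BL/6J libraries above the lowest CAST/EiJ libraries. Grik1 went the other way, with 10.4 to 17.0 CPM in C57BL/6J (median 11.96), 8.62 to 13.2 in CAST/EiJ (median 10.6) and 7.26 to 12.3 in NZO/HlLtJ (median 9.97). Its log2 change against C57BL/6J was -0.25 ± 0.07 in CAST/EiJ (adjusted p = 0.00527) and -0.31 ± 0.07 in NZO/HlLtJ (adjusted p = 0.00166). Grik4 was lower in NZO/HlLtJ than CAST/EiJ (-0.14 ± 0.06, adjusted p = 0.0406), a call that was lost without any 1 of 5 libraries (NZO/HlLtJ male control 1, NZO/HlLtJ female HFHS 3, NZO/HlLtJ male HFHS 3, CAST/EiJ female control 1 or CAST/EiJ male HFHS 3; adjusted p 0.0524 to 0.0578). Grik2 and Grik5 were not called.

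Neto2, which speeds the recovery of kainate receptors and alters their gating, was higher in CAST/EiJ than in both other strains. It spanned 54.8 to 85.6 CPM in C57BL/6J (median 69.0), 59.3 to 111 in CAST/EiJ (median 87.2) and 54.5 to 79.9 in NZO/HlLtJ (median 67.4). The ranges overlapped, with CAST/EiJ female control 1 the lowest of its strain. The log2 change was 0.30 ± 0.08 for CAST/EiJ against C57BL/6J (adjusted p = 0.00181) and -0.36 ± 0.08 for NZO/HlLtJ against CAST/EiJ (adjusted p = 0.000343). Neto1 was not called between strains by the main test (11.95 to 31.5 CPM over the 36 libraries).

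Of the 7 NMDA subunits, 2 were called in CAST/EiJ against C57BL/6J (28.6%, beside 52.3% of all genes), 1 in NZO/HlLtJ against CAST/EiJ (14.3%, beside 50.1%) and 0 in NZO/HlLtJ against C57BL/6J (beside 24.0%). Grin2d, whose channels are weakly blocked by magnesium, spanned 18.3 to 31.0 CPM in C57BL/6J (median 23.3), 24.95 to 38.4 in CAST/EiJ (median 30.4) and 20.9 to 38.7 in NZO/HlLtJ (median 28.4). It was higher in CAST/EiJ than in C57BL/6J by 0.35 ± 0.09 log2 units (adjusted p = 0.00194), and the groups overlapped. An antisense gene covers 9.7% of its exons, and whether the counting used the strand is not given in the sources used here. Grin2a, the common mature partner of Grin1, spanned 89.0 to 148 CPM in C57BL/6J (median 126), 112 to 172 in CAST/EiJ (median 143) and 85.5 to 150 in NZO/HlLtJ (median 120). It was higher in CAST/EiJ than in C57BL/6J (0.25 ± 0.08, adjusted p = 0.0143) and lower in NZO/HlLtJ than CAST/EiJ (-0.30 ± 0.08, adjusted p = 0.00457). Grin1 itself ran from 285 to 405 CPM over all libraries and was not called, nor were Grin2b, Grin2c, Grin3a and Grin3b.

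Grid1, a delta receptor, was called in both comparisons with CAST/EiJ. Its level was 45.5 to 58.4 CPM in C57BL/6J (median 51.5), 50.9 to 62.8 in CAST/EiJ (median 59.5) and 39.6 to 58.5 in NZO/HlLtJ (median 50.6). The log2 change was 0.18 ± 0.05 for CAST/EiJ against C57BL/6J (adjusted p = 0.00442) and -0.23 ± 0.05 for NZO/HlLtJ against CAST/EiJ (adjusted p = 0.00039), with overlapping ranges.

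Of the 5 metabotropic receptors whose levels are given above, 3 were called in CAST/EiJ against C57BL/6J (beside 52.3% of all genes), 3 in NZO/HlLtJ against CAST/EiJ (beside 50.1%) and 2 in NZO/HlLtJ against C57BL/6J (beside 24.0%). Grm5 was not called. Grm3 spanned 33.4 to 45.9 CPM in C57BL/6J (median 39.7), 26.4 to 39.5 in CAST/EiJ (median 33.3) and 32.3 to 47.8 in NZO/HlLtJ (median 41.5). CAST/EiJ was the low strain, with a log2 change of -0.28 ± 0.06 against C57BL/6J (adjusted p = 0.000205), and NZO/HlLtJ was higher than CAST/EiJ by 0.30 ± 0.06 (adjusted p = 9.65e-05). Grm2 was instead highest in NZO/HlLtJ, with 9.08 to 20.5 CPM (median 14.0) beside 8.83 to 13.8 in C57BL/6J (median 10.6) and 6.32 to 15.8 in CAST/EiJ (median 10.4). It was higher in NZO/HlLtJ than in C57BL/6J by 0.32 ± 0.10 (adjusted p = 0.0161) and than in CAST/EiJ by 0.39 ± 0.10 (adjusted p = 0.00138). An antisense gene covers 9.6% of the Grm2 exons.

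Grm7, which sits at transmitter release sites, was highest in C57BL/6J, at 31.6 to 49.4 CPM (median 39.9), beside 30.0 to 39.3 in CAST/EiJ (median 37.4) and 25.1 to 41.6 in NZO/HlLtJ (median 33.6). Its log2 change against C57BL/6J was -0.31 ± 0.06 in NZO/HlLtJ (adjusted p = 0.00022) and -0.17 ± 0.06 in CAST/EiJ (adjusted p = 0.0196). The CAST/EiJ call was lost without any 1 of 4 libraries (CAST/EiJ male control 2, C57BL/6J male control 3, C57BL/6J male HFHS 1 or C57BL/6J female HFHS 3; adjusted p 0.0571 to 0.105), and without the last of these the change was -0.11. Its change in NZO/HlLtJ against CAST/EiJ was -0.14 ± 0.06 (adjusted p = 0.0529), and it was called there with DESeq2 and with limma on the deposited log2 values. Grm8, of the same group, was higher in CAST/EiJ than in C57BL/6J (0.19 ± 0.07, adjusted p = 0.0141) and lower in NZO/HlLtJ than CAST/EiJ (-0.24 ± 0.07, adjusted p = 0.00347).

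Homer2, which links metabotropic receptors to calcium stores, had the largest strain difference of the 39 genes. It spanned 36.25 to 49.4 CPM in C57BL/6J (median 40.8), 41.2 to 75.5 in CAST/EiJ (median 65.7) and 35.99 to 59.0 in NZO/HlLtJ (median 45.7). CAST/EiJ male control 1 (41.2) and 3 (45.5), both almost without Hox reads, were the 2 lowest of their strain. The log2 change was 0.56 ± 0.08 for CAST/EiJ against C57BL/6J (adjusted p = 2.97e-07) and -0.45 ± 0.08 for NZO/HlLtJ against CAST/EiJ (adjusted p = 1.11e-05). Without the 3 low-Hox libraries these values were 0.69 and -0.56. Homer1 and Homer3 were not called between strains.

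MAGUK differences were small. Dlg4 spanned 283 to 328 CPM in C57BL/6J (median 292), 302 to 341 in CAST/EiJ (median 321) and 241 to 317 in NZO/HlLtJ (median 289). It was higher in CAST/EiJ than in C57BL/6J by 0.12 ± 0.03 log2 units (adjusted p = 0.00475) and lower in NZO/HlLtJ than CAST/EiJ (-0.17 ± 0.03, adjusted p = 0.000132). Dlg3 behaved alike, at 0.13 ± 0.04 (adjusted p = 0.00434) and -0.14 ± 0.04 (adjusted p = 0.00174). Dlg1, which encodes SAP97, was lower in CAST/EiJ than in C57BL/6J (-0.14 ± 0.03, adjusted p = 0.000912), and its change in NZO/HlLtJ against C57BL/6J was -0.09 ± 0.03 (adjusted p = 0.0662). Dlg2 was not called.

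These counts differed between fits with tissue scores as covariates and fits without single libraries, and the share of all tested genes called in each fit is given beside them. For NZO/HlLtJ against C57BL/6J, 7 genes were called with a Hox score as a covariate (24.5% of all genes) and 9 without the 3 low-Hox libraries (23.6%), with Gria1, Shisa9 and Dlg1 among the added genes in both, and 7 without NZO/HlLtJ male control 3 alone (23.8%). For CAST/EiJ against C57BL/6J, 22 were called with the cerebellar score as a covariate (54.8% of all genes), with added genes that included Gria2, Gria4, Grik2, Shisa6 and Homer3 (higher) and Grin3b and Neto1 (lower). For NZO/HlLtJ against CAST/EiJ, 19 were called with the Hox score (51.9% of all genes), 17 with the cerebellar score (52.4%) and 19 without NZO/HlLtJ male control 3 (50.9%). Without the 3 low-Hox libraries, 15 were called in each of the last 2 comparisons (48.6% and 47.1%). In the last comparison the genes that both scores added included Gria1, Gria4, Shisa6, Shisa8 and Dlg2. Every gene of the main call was kept under the Hox and the cerebellar score in all 3 comparisons. Summed oligodendrocyte markers were also lower in CAST/EiJ (medians of 10030 and 11600 CPM on the control and HFHS diets) than in C57BL/6J (14690 and 14730), with 7 of 8 genes called lower. Other marker lists differed in the same comparison, with 5 of 5 endothelial, 4 of 7 microglial and 5 of 6 red blood cell genes called lower, 2 lower and 1 higher of 3 oligodendrocyte precursor genes, and 3 higher and 2 lower of 8 astrocyte genes. The part of these lists in the strain differences was not tested. All strains were counted against 1 genome build, and the part of sequence differences between the strains was not tested.

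Other genes of glutamate signalling, 38 genes of transport, AMPA receptor partners, the postsynaptic density and cerebellins, gave 2 higher and 6 lower in NZO/HlLtJ against C57BL/6J (21.1% called, beside 24.0% of all genes). They gave 9 higher and 3 lower in CAST/EiJ against C57BL/6J (31.6%, beside 52.3%), and 2 higher and 13 lower in NZO/HlLtJ against CAST/EiJ (39.5%, beside 50.1%). Srr, serine racemase, which makes the NMDA receptor co-agonist D-serine, was 41.0 ± 2.68 CPM in C57BL/6J (SD, n = 12), 54.8 ± 2.43 in CAST/EiJ and 39.98 ± 3.05 in NZO/HlLtJ. Its log2 change was 0.42 ± 0.04 for CAST/EiJ against C57BL/6J (adjusted p = 4.29e-10 in edgeR's quasi-likelihood test) and -0.45 ± 0.04 for NZO/HlLtJ against CAST/EiJ (adjusted p = 8.08e-11). The postsynaptic density gene Shank1 (0.32 ± 0.06) and the AMPA receptor clustering gene Nptx2 (0.44 ± 0.12) were higher in CAST/EiJ than in C57BL/6J, and the cerebellin Cbln4 was lower (-0.37 ± 0.06). In NZO/HlLtJ against C57BL/6J, the vesicular transporter Slc17a8 (-0.74 ± 0.24), the glutaminase Gls2 (-0.31 ± 0.05) and the AMPA auxiliary subunit stargazin, Cacng2 (-0.26 ± 0.04), were lower.

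The next question is what the HFHS diet did within each strain. None of the 39 genes was called in C57BL/6J, CAST/EiJ or NZO/HlLtJ, or averaged over the strains, by edgeR's quasi-likelihood test or by DESeq2. Of all genes tested, edgeR called 0%, 0.343%, 0.0547% and 0.149% in the same comparisons. At an unadjusted p under 0.05 in edgeR there were 1, 15, 2 and 12 of the 39 genes. Of all 20108 genes tested, 547, 3758, 2050 and 3104 passed the same cutoff. The smallest adjusted p of the 39 genes in edgeR was 1, 0.0944, 0.212 and 0.216. None of the 3 comparisons of the diet effect between strains called any of the 39 genes either (0% of all genes tested in each). The 38 other genes of glutamate signalling gave no diet call in any strain.

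**Figure D4:**
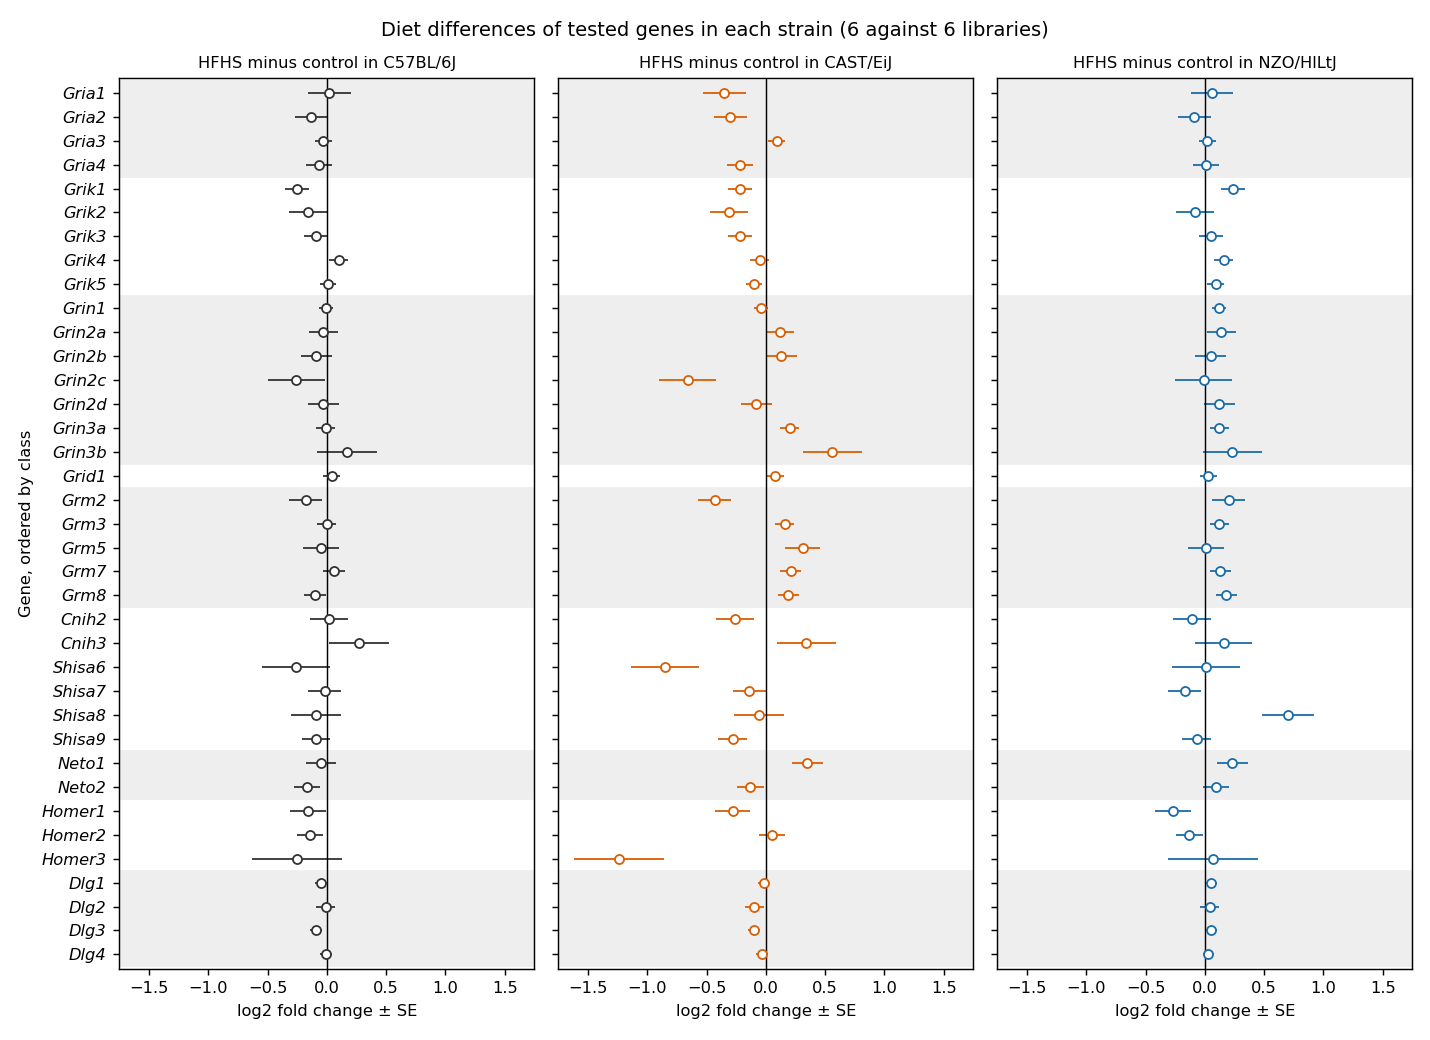
Log2 fold change ± SE of HFHS against control diet for the tested genes reported here, with 1 panel per strain (6 against 6 libraries); open points mark that none was called. In CAST/EiJ the values of Homer3 (-1.24), Shisa6 (-0.85) and Grin2c (-0.66) lie farthest below 0, and in NZO/HlLtJ Shisa8 (0.70) lies farthest above it.

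In CAST/EiJ the largest values included genes known from the cerebellar cortex. Homer3, a Purkinje cell scaffold, was 10.4, 17.0, 32.3, 42.0, 116 and 119 CPM in the 6 control libraries and 10.5, 13.7, 15.8, 16.2, 17.0 and 35.9 CPM in the 6 HFHS libraries. The groups overlapped, and the 2 values above 100 CPM were those of CAST/EiJ male control 1 and 3. The log2 change was -1.24 ± 0.38 (adjusted p = 0.0944 in edgeR's quasi-likelihood test). The antisense gene Ddx49 covers 25.4% of its exons, and the part of this overlap in the count was not tested.

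Shisa6 gave 34.3, 44.7, 57.02, 69.4, 149.6 and 151 CPM on the control diet and 30.1, 35.7, 35.8, 41.4, 42.6 and 63.6 CPM on HFHS in CAST/EiJ. The same 2 control libraries were highest, and the log2 change was -0.85 ± 0.29 (adjusted p = 0.114). Grin2c (-0.66 ± 0.24, adjusted p = 0.129) had the same 2 libraries on top. Grm2, at 9.65 to 15.8 CPM on the control diet and 6.32 to 10.6 on HFHS, had a log2 change of -0.43 ± 0.14 (adjusted p = 0.109). Neto1 and Grin3b stood the other way, at 0.35 ± 0.13 (adjusted p = 0.152) and 0.56 ± 0.25, and CAST/EiJ male control 1 and 3 were their lowest libraries.

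Median sums of cerebellar, Hox and red blood cell markers differed between the diets in CAST/EiJ, and of these only the red blood cell sums did not overlap. The 5 Purkinje cell markers summed to 191 to 3085 CPM on the control diet in CAST/EiJ (median 1051) and to 218 to 965 on HFHS (median 333), and all 5 had log2 changes below 0 (median -1.63, 0 of 5 called). The 6 granule cell markers summed to 48.1 to 1444 CPM and 29.2 to 471 CPM, with a median log2 change of -1.58. The 18 Hox genes summed to 0.413 to 239.7 CPM on the control diet (median 77.0) and to 229 to 327 on HFHS (median 258), so that their ranges barely overlapped. The 6 red blood cell genes summed to 655 to 2540 CPM and 210 to 385 CPM, which did not overlap, and 5 of the 6 were called lower on HFHS. In C57BL/6J and NZO/HlLtJ, red blood cell medians were also lower on HFHS (525 beside 1487 CPM and 753 beside 1304 CPM). Purkinje cell medians were lower there too (724 beside 1066 CPM and 900 beside 1081 CPM). Hox medians were higher (169 beside 49.6 CPM and 99.6 beside 57.1 CPM). All these ranges overlapped. The part of red blood cell content was not tested.

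With the Hox score as a covariate, the diet values in CAST/EiJ were 0.08 ± 0.35 (SE) for Homer3, 0.20 ± 0.24 for Shisa6 and 0.12 ± 0.21 for Grin2c. They were -0.27 ± 0.21 for Grin3b and -0.02 ± 0.13 for Neto1. Each was on the other side of 0 from the value above. Grm2 (-0.11 ± 0.16) and Grm7 (0.16 ± 0.11) kept their sign. Because Hox sums barely overlapped between the diets in CAST/EiJ, this fit can hardly separate the Hox score from the diet. With the cerebellar score as a covariate the values were -0.35 for Homer3, -0.24 for Shisa6, -0.15 for Grin2c, -0.26 for Grm2, 0.20 for Grin3b, 0.23 for Neto1 and 0.20 for Grm7. Without the 3 low-Hox libraries they were -0.68, -0.44, -0.50, -0.39, 0.21, 0.11 and 0.24 in the same order. None was called in these 3 fits.

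**Figure D5:**
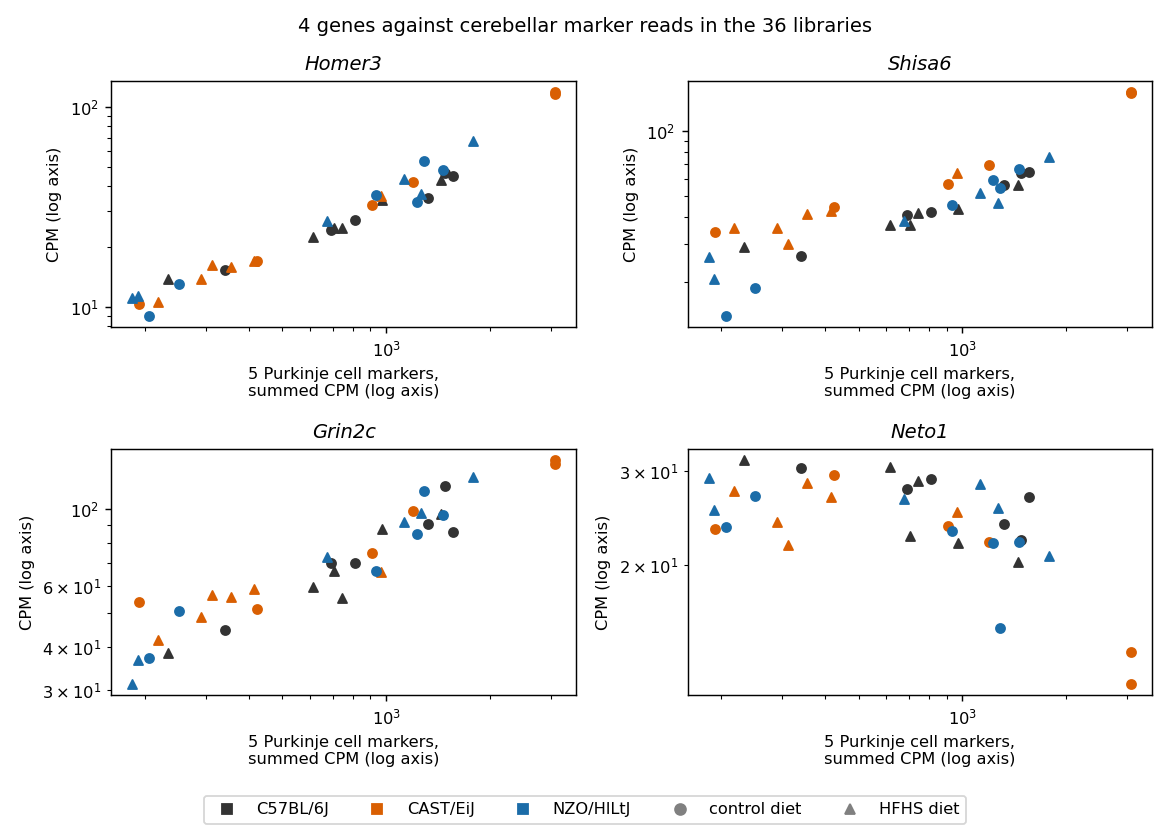
CPM of 4 genes against the summed CPM of 5 Purkinje cell markers in each of the 36 libraries, both on log axes, coloured by strain, with circles for the control and triangles for the HFHS diet. CAST/EiJ male control 1 and 3, at 3074 and 3085 CPM of the markers, have the highest Homer3, Shisa6 and Grin2c and the lowest Neto1 (13.7 and 11.95 CPM).

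The share of all genes tested whose diet groups did not overlap in CAST/EiJ was not counted. Grm7 was without overlap there. It was 30.0, 32.0, 32.2, 34.3, 35.6 and 37.1 CPM on the control diet and 37.8, 38.1, 38.5, 38.8, 38.9 and 39.3 CPM on HFHS, with a log2 change of 0.21 ± 0.09 (adjusted p = 0.195 in edgeR's quasi-likelihood test).

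The absence of diet calls in CAST/EiJ also rested on single libraries. Without CAST/EiJ male control 2, 7 genes were called (9.8% of all genes were called in that fit), among them Homer3 (-1.42, adjusted p = 0.0196 in edgeR's quasi-likelihood test), Shisa6 and Grik3 with values below 0, and Neto1 (0.50, adjusted p = 0.0113) and Grin3b (0.84, adjusted p = 0.033) with values above 0. This fit kept CAST/EiJ male control 1 and 3, both low-Hox libraries, as the only male control libraries of the strain. Without the 3 low-Hox libraries, Homer3 (-0.68 ± 0.40), Shisa6 (-0.44 ± 0.26), Neto1 (0.11 ± 0.14) and Grin3b (0.21 ± 0.26) were not called. Homer3 (-1.60) was among 2 genes called without CAST/EiJ female HFHS 1 (1.54% of all genes), and Shisa6 (-0.86) among 2 without NZO/HlLtJ male control 3 (2.36%). In a fit of the CAST/EiJ libraries alone, in which 0.795% of all genes were called, Grin2c (-0.67 ± 0.12, adjusted p = 0.0361) and Grm7 (0.20 ± 0.04, adjusted p = 0.0453) were called.

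In NZO/HlLtJ the value farthest from 0 was that of Shisa8. It was 2.87, 2.89, 3.94, 4.25, 4.93 and 5.70 CPM on the control diet and 3.97, 5.47, 5.55, 5.94, 9.08 and 9.91 CPM on HFHS. The groups overlapped, with female HFHS 2 and 3 on top, and the log2 change was 0.70 ± 0.22 (adjusted p = 0.212). Without the 3 low-Hox libraries, Gria1 was called in NZO/HlLtJ (0.43 ± 0.09, adjusted p = 0.0229), and without NZO/HlLtJ male control 3 alone its diet effect differed between NZO/HlLtJ and CAST/EiJ (0.79 ± 0.16, adjusted p = 0.0281). Gria1 was not called in NZO/HlLtJ with the Hox score (0.39 ± 0.15) or the cerebellar score (0.18 ± 0.14) as a covariate. Its highest NZO/HlLtJ control value was that of the left-out male control 3 (304 CPM). The lowest were those of male control 1 (97.6 CPM, the library with pituitary reads) and male control 2 (105 CPM). In C57BL/6J the smallest p belonged to Grik1 (-0.25 ± 0.10, adjusted p = 1 in edgeR's quasi-likelihood test), followed by Dlg3 (-0.09), Neto2 (-0.17), Homer2 (-0.14) and Grm2 (-0.18). In NZO/HlLtJ, Grik1 (0.24), Grik4 (0.16), Grin1 (0.12) and Grm8 (0.18) followed Shisa8. Averaged over the strains, the smallest p belonged to Homer1 (-0.24 ± 0.09, adjusted p = 0.216), and Grm7 (0.13) and Neto1 (0.18) were among the next.

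Of the differences in diet effect between NZO/HlLtJ and CAST/EiJ, the smallest p belonged to Grik1 (0.47 ± 0.15, adjusted p = 0.256) and Grm2 (0.62 ± 0.20, adjusted p = 0.26), neither called, and Shisa8 (0.76) and Homer3 (1.31) were among the next. Between NZO/HlLtJ and C57BL/6J, Grik1 (0.50 ± 0.15, adjusted p = 0.513), Shisa8 (0.79), Grm8 (0.28), Grm2 (0.37) and Dlg3 (0.14) had the smallest p. Between CAST/EiJ and C57BL/6J these were Grm8 (0.29 ± 0.13, adjusted p = 0.737), Neto1 (0.39), Homer3 (adjusted p = 0.754), Grin3a (0.21) and Grm5 (0.36). Grik1 stood at 0.24 ± 0.10 in NZO/HlLtJ, and Grm2 at -0.43 in CAST/EiJ. Between males and females, averaged over strains and diets, none of the 39 genes was called (0.0796% of all genes tested), and Grm3 had the smallest p (-0.07 ± 0.05 for male minus female, adjusted p = 0.992 in edgeR's quasi-likelihood test), before Grm7 (0.07), Neto2 (0.09), Dlg4 (-0.04) and Homer2 (-0.08).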

How the data were processed

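The deposited estimated counts (expected counts that need not be whole) were rounded, and the deposited log2 values, a variance-stabilising transformation by the authors, served as an alternative. Per the submitters' processing notes the genome build was GRCm38 and DESeq2 was used. The aligner, counting tool and strand setting were not given in the sources used here. The test was edgeR's quasi-likelihood test (version 4.0.16 in R 4.3.3, TMM scaling, genes kept by filterByExpr at min.count 10 and min.total.count 15), with 1 mean for each of the 12 groups, 24 residual degrees of freedom and Benjamini-Hochberg adjustment over 20108 genes, checked on simulated data. CPM used TMM-scaled totals. Exon lengths and overlaps came from gencode vM21. Alternatives were DESeq2 1.42.0, limma 3.58.1, other scaling and filters, tissue covariates and leaving out libraries. The tissue scores were mean log2 CPM of marker lists. Full statistics were given for the called genes with the 3 largest changes of each class in a comparison, and for the 5 smallest p where fewer than 5 were called. Results of some genes are not reported here, although counts of genes include them. The genes, lists and tests were chosen with earlier results of these data known.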

Additional observations from a re-analysis of the deposited data

Results flagged for a closer look

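In 10 of the 228 sets of 6 libraries (38 genes, 3 strains, 2 diets), 1 library stood farther from the rest than Dixon's 95% critical value allows, and chance flags about 1 in 20 sets. Of the 10, 4 fell on CAST/EiJ female HFHS 1, the highest of its strain and diet for Gria1 (247.2 CPM), Grik2 (58.88), Shisa6 (63.61) and Homer3 (35.92). Its summed Purkinje cell markers were 965 CPM and its granule cell markers 471.4 CPM, the highest of the 6 libraries, and their part in these values was not tested. Grik3 was 129.3 CPM in CAST/EiJ male control 1. Grin3b was 7.013 CPM in C57BL/6J female control 3 and 5.917 in C57BL/6J male HFHS 1, and an antisense gene covers 32.1% of its exons. Homer1 was 53.53 CPM in C57BL/6J female HFHS 1, and Grm5 113.6 CPM in NZO/HlLtJ male HFHS 2. Grm6 was 0.07237 CPM in C57BL/6J female HFHS 3, a level of at most 3 counts.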

How the results depend on the processing

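The labels name no pairs of libraries, so no paired analysis was made. They carry no replicate numbers, and the numbers used here follow the order of the samples. The genes called between strains were all kept, with the same direction, with other size factors, without a filter on low counts, with DESeq2, with limma on the deposited log2 values and in an additive model with sex. Gria3 was added in NZO/HlLtJ against CAST/EiJ with other size factors, with DESeq2, with limma and in a fit of these strains alone. Grm7 was added there with DESeq2 and with limma. On the deposited log2 values Grik1 and Grm2 had smaller changes (-0.19 and 0.20 in NZO/HlLtJ against C57BL/6J). The number called rose for NZO/HlLtJ against C57BL/6J to 7 with the Hox score and 9 without the 3 low-Hox libraries, for CAST/EiJ against C57BL/6J to 22 with the cerebellar score, and for NZO/HlLtJ against CAST/EiJ to 19 with the Hox and 17 with the cerebellar score. Leaving out each library gave 4 to 7, 13 to 15 and 10 to 19 called genes in these comparisons, and 0 to 7 for the diet in CAST/EiJ. For the diet in CAST/EiJ, 2 were called from that strain alone. For the diet in NZO/HlLtJ, 1 was called without the 3 low-Hox libraries, and for the difference in diet effect between NZO/HlLtJ and CAST/EiJ leaving out each library gave 0 to 1. With the Hox score the diet values in CAST/EiJ turned to 0.08 ± 0.35 (Homer3, SE), 0.20 ± 0.24 (Shisa6), 0.12 ± 0.21 (Grin2c), -0.27 ± 0.21 (Grin3b) and -0.02 ± 0.13 (Neto1). Averaged over strains, that of Neto1 turned to -0.05 ± 0.08. The sex value of Homer2 turned to 0.00 in another of the alternative fits. The cause of these shifts was not tested. Grm6 was below what this depth can compare.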
